A study of Mus musculus with 28 samples.

Results

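Aqp3 encodes aquaporin-3, a channel of the plasma membrane that lets water, glycerol and hydrogen peroxide cross. It was examined as 1 gene of the 55536 gene identifiers counted in 28 RNA-seq libraries of mouse interfollicular epidermis, the skin surface between the hair follicles. Aqp3 was chosen from these data for a large excess in tail skin and for a difference between Slc1a3-lineage and Aspm-lineage cells that turns between tail and back. Those contrasts, and every other comparison that uses the labelled Slc1a3+ or Aspm+ libraries that enter them, are therefore given below as values only, with no test of Aqp3.

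Every mouse carried an inducible Cre recombinase (CreER) under Slc1a3, Aspm, Dlx1 or K14 and a Rosa tdTomato reporter that Cre switches on, and the labels call all of them wild type. Tamoxifen was given at 100 µg/ml for 5 days at postnatal days 30 to 34, and the harvest followed after 2 weeks, on postnatal day 49, while the hair follicles rested (telogen). No group without tamoxifen, without CreER or at another age was among the libraries. Tail skin gave 2 libraries each of Slc1a3+, Aspm+ and Dlx1+ cells and 2 libraries of total interfollicular epidermis from each of the same lines. Back skin gave 3 libraries each of Slc1a3+ and Aspm+ cells and 2 of K14+ cells, with as many libraries of total epidermis from each line. The Dlx1 line was sampled in tail alone and the K14 line in back alone, so neither gives a comparison of sites. The labelled cells are those that expressed the driver gene when tamoxifen was given, together with their descendants, and the labels do not say whether the totals contain them. Separate animals are not stated either, so the p-values below rest on library-to-library spread alone, and that spread may be technical.

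Aquaporin-3 is the main aquaglyceroporin of the epidermis. In mouse skin it is known to sit in the membranes of the basal and lower suprabasal keratinocytes, and mice without it are known to have a dry cornified layer with less glycerol and lower elasticity. Glycerol that enters by this route can be used for glycerolipids, and hydrogen peroxide that enters by it can act as a signal inside the cell.

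The libraries held 7738262 to 37670589 counts, and basal keratinocyte genes were present in every group, with 8 of them (Krt5, Krt14, Krt15, Itga6, Itgb4, Col17a1, Itga3 and Lama3) summing to 54696 to 118748 CPM. CPM is a gene's count as a share of its library, scaled to the same total in every library. All levels below are CPM after scaling by TMM, edgeR's correction for differences in composition between libraries. Replicate 4 of the Slc1a3 total from back stood apart, with the lowest total and 14436 genes with a count, against 18375 to 22500 genes in the other 27 libraries. Fitted changes that use it are also given without it.

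Aqp3 (ENSMUSG00000028435) lies on the minus strand of GRCm38 chromosome 4, from 41092722 to 41098183, and its exons cover 1829 bases. The kit did not keep strand, and 0 annotated genes overlap Aqp3, so its counts were not shared with an overlapping gene. The 250 bases before its start, from RefSeq's GRCm38.p6 annotation (chr4:41098184-41098433, minus strand), are shown because the genes most like Aqp3 are compared with it below for the same motifs. The capitals mark, in order, a GC box read on the other strand, from -73 to -68 counted from the start, and a TATA box, from -29 to -24.
Aqp3 promoter: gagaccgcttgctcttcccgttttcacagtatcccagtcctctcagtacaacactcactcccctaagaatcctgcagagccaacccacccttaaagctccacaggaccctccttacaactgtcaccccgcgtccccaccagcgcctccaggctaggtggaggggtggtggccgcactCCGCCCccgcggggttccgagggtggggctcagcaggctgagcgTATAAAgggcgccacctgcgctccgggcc
The letters searched for a TATA box were TATAAA. Those searched for a GC box were GGGCGG. Each was looked for on both strands, and the 2 matches do not overlap. Among 32851 mouse promoters of the same table, 12.4% held TATAAA and 32.7% held GGGCGG in this window. A match describes the letters and is not a measured site of binding.

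Aqp3 was far more abundant in every tail library than in any back library. The 12 tail libraries ranged from 1314 to 1870 CPM with a median of 1468, and the 16 back libraries from 29.59 to 123.5 CPM with a median of 73.97. The ranges do not overlap, and the lowest tail library had more than the highest back library. These levels rest on 21872 to 46412 Aqp3 counts in each tail library and on 476 to 2939 in each back library, so counting error was smaller in tail. In bulk libraries, fewer cells that express a gene and less of its RNA per cell cannot be told apart.

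**Figure D1:**
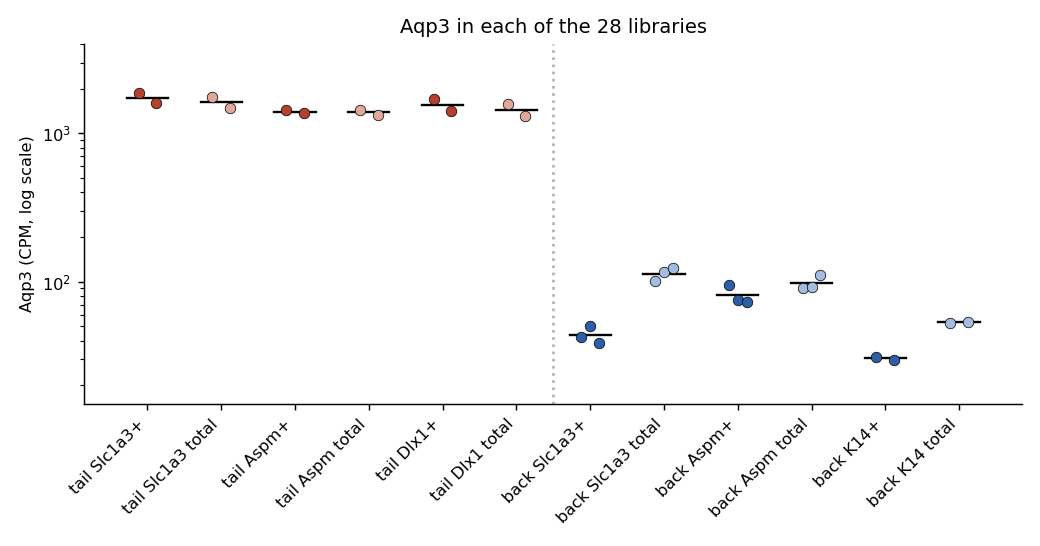
Aqp3 in each of the 28 libraries (CPM, logarithmic axis), with 1 point per library, a bar at each group's mean, tail in red, back in blue, and labelled cells in the darker shade. All tail libraries sit between 1314 and 1870 CPM, and the back libraries spread from 29.59 to 123.5 CPM.

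In Slc1a3+ cells, Aqp3 had 1870 and 1605 CPM in tail, against 42.42, 50.22 and 38.6 CPM in back. The ratio of the means was 39.7, the widest of the 4 ratios between sites. In Aspm+ cells it had 1445 and 1360 CPM in tail, against 94.43, 75.26 and 72.68 CPM in back, a ratio of 17.4. The totals lay closer together. The Slc1a3 total had 1760 and 1490 CPM in tail, against 100.8, 115.8 and 123.5 CPM in back, a ratio of 14.3. The Aspm total had 1446 and 1322 CPM in tail, against 90.67, 91.87 and 110.8 CPM in back, a ratio of 14.2. The fitted log2 fold change of tail over back was 3.83 in the totals of both lines together (standard error, SE, 0.113; 3.87 without the total that stood apart), 5.31 in Slc1a3+ cells (SE 0.170) and 4.12 in Aspm+ cells (SE 0.162). Between tail and back, 46.2% of all 17493 genes tested passed an adjusted p under 0.05 in the totals, 40.6% in Slc1a3+ cells and 27.2% in Aspm+ cells, so a call between sites is common, and 497 genes had a larger fold than Aqp3 in the totals.

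Per kilobase of exon, Aqp3 stood at ranks 32 to 57 among all genes in the tail libraries and at ranks 552 to 3175 in the back libraries. The group means were 950 CPM per kilobase in tail Slc1a3+ cells, 767 in tail Aspm+ cells and 851 in tail Dlx1+ cells. They were 23.9 in back Slc1a3+ cells, 44.2 in back Aspm+ cells and 16.6 in back K14+ cells.

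The 12 groups fell in the following order of mean CPM (SD). In tail, Slc1a3+ cells had 1738 (187), the Slc1a3 total 1625 (191), Dlx1+ cells 1556 (204), the Dlx1 total 1442 (181), Aspm+ cells 1403 (60.3) and the Aspm total 1384 (87.6), with n = 2 each. Neighbouring tail groups overlapped throughout. In back, the order was the Slc1a3 total with 113.4 (11.5, n = 3), the Aspm total with 97.79 (11.3, n = 3), Aspm+ cells with 80.79 (11.9, n = 3), the K14 total with 53.14 (0.679, n = 2), Slc1a3+ cells with 43.74 (5.92, n = 3) and K14+ cells with 30.44 (1.20, n = 2). The 3 highest back groups overlapped their neighbours, and from the Aspm+ cells downwards each group lay apart from the next. On the log2 CPM scale 95% of the spread over the 28 libraries lay between the sites. Within a site, the SD of log2 CPM was 0.17 in tail and 0.68 in back, and differences between groups made up 55.5% of the tail spread and 96.3% of the back spread.

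The difference between the Slc1a3 and Aspm lineages, for which the gene was chosen, had opposite signs at the 2 sites. In tail, Slc1a3+ cells (1870 and 1605 CPM) lay above Aspm+ cells (1445 and 1360 CPM), with a log2 fold change of 0.31 (SE 0.168). In back, Slc1a3+ cells (38.6 to 50.22 CPM) lay below Aspm+ cells (72.68 to 94.43 CPM), with a log2 fold change of -0.88 (SE 0.140). Neither pair of groups overlapped. The tail difference minus the back difference was 1.19 (SE 0.219). Genes past the threshold made up 0.492% of those tested in tail, 0.16% in back and 0.137% for the difference between sites. The totals of the same lines entered the choice of the gene through the tail excess, but not through their difference between lines. Between the lines, these totals differed by a log2 fold change of 0.23 (SE 0.168) in tail and 0.21 (SE 0.139) in back. The tail difference minus the back difference was then 0.02 (95% interval -0.43 to 0.47), with an edgeR adjusted p of 1, where 0% of genes passed, and 0.08 without the total that stood apart. For this difference edgeR's quasi-likelihood test called 0 genes (2853 at an unadjusted p under 0.05), limma-voom 0 and DESeq2 659.

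The next question was whether labelled cells differed from the total epidermis of the same line. The comparisons of the K14 and Dlx1 lines are tested, because they use no Slc1a3+ or Aspm+ library. Aqp3 was chosen with its levels in all 28 libraries known, so these p-values are not fully independent of that choice. In back, Slc1a3+ cells had 42.42, 50.22 and 38.6 CPM, against 100.8, 115.8 and 123.5 CPM in the Slc1a3 total. Each labelled library lay below each total. The log2 fold change was -1.37 (SE 0.142), and -1.31 without the total that stood apart, replicate 4. In that comparison 0.109% of genes passed in either direction.

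Back K14+ cells had 31.29 and 29.59 CPM, against 52.66 and 53.62 CPM in the K14 total. The groups did not overlap, and the log2 fold change was -0.80 (SE 0.173, 95% interval -1.16 to -0.45), with an edgeR adjusted p of 0.265 where 0.00572% of genes passed. The number's 2 pairs in this line give a single correlation of deviations, 0.362. With a term for each pair of a labelled library and the total of the same line and number, the log2 fold change was again -0.80 and passed the threshold (edgeR adjusted p = 0.0454). It also passed with DESeq2 (log2 fold change -0.82, adjusted p = 0.00852) and with no filter on low counts (-0.80, edgeR adjusted p = 0.0291). It did not pass with limma-voom (-0.79) or with the compared groups alone in the fit (-0.81, edgeR adjusted p = 0.103). Nor did it pass with scaling by DESeq2 size factors (-0.82, edgeR adjusted p = 0.272) or by library totals (-0.83, edgeR adjusted p = 0.16). Leaving out 1 K14 library at a time, which left a lone library in its group, gave -0.87 to -0.76. Back Aspm+ cells had 94.43, 75.26 and 72.68 CPM, against 90.67, 91.87 and 110.8 CPM in the Aspm total. These groups overlapped, with a log2 fold change of -0.28 (SE 0.138). In that comparison 0% of genes passed, with 0 called by edgeR's quasi-likelihood test (382 at an unadjusted p under 0.05), 0 by limma-voom and 2 by DESeq2.

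In tail the labelled cells of all 3 lines lay close to their totals. Slc1a3+ cells had 1870 and 1605 CPM, against 1760 and 1490 CPM in the Slc1a3 total, a log2 fold change of 0.10 (SE 0.168, 0.514% of genes passed). Aspm+ cells had 1445 and 1360 CPM, against 1446 and 1322 CPM in the Aspm total, a log2 fold change of 0.02 (SE 0.168, 0.00572% of genes passed). That sign turned with no filter on low counts and with scaling by library totals. Dlx1+ cells had 1700 and 1412 CPM, against 1570 and 1314 CPM in the Dlx1 total, a log2 fold change of 0.11 (95% interval -0.24 to 0.46, edgeR adjusted p = 1, 0% of genes passed). There edgeR's quasi-likelihood test called 0 genes (446 at an unadjusted p under 0.05), limma-voom 29 and DESeq2 34. All 3 tail pairs of groups overlapped. Of these 3 comparisons only that of Dlx1+ cells was tested, and its interval reached up to 0.46 on the log2 scale.

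**Figure D2:**
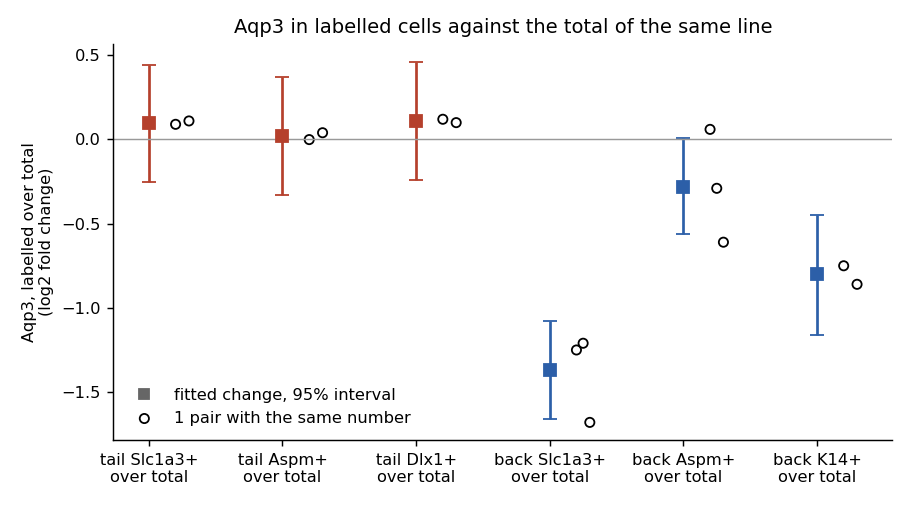
Aqp3 in labelled cells over the total of the same line (log2 fold change) in 3 tail and 3 back lines, with squares for the fitted change, bars for its 95% interval and open circles for pairs of libraries with the same line and number. The interval of tail Dlx1+ cells includes 0, and that of back K14+ cells, not adjusted for the number of genes, lies wholly below it. The intervals of Slc1a3+ and Aspm+ cells are shown as values only, with no test.

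Of 8 back pairs of a labelled library and the total with its number, Aqp3 was lower in the labelled library in 7, and of 6 tail pairs it was higher in 5. The change in Slc1a3+ cells over the Slc1a3 total was larger by 1.47 on the log2 scale in tail than in back (SE 0.220), where 0.0915% of genes passed. It was 1.40 without the total that stood apart. For Aspm+ cells the same difference was 0.30 (SE 0.218, 0% of genes passed), with 0 genes called by edgeR (349 at an unadjusted p under 0.05), 0 by limma-voom and 2 by DESeq2.

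Hair follicle genes also differed between labelled and total libraries. The summed level of 8 genes of the follicle bulge and germ (Cd34, Lgr5, Lhx2, Sox9, Krt75, Postn, Grem1 and Sostdc1) was 178.6 to 402.3 CPM in back Slc1a3+ cells, against 413.2 to 578.5 CPM in the Slc1a3 total. It was 189.7 to 235.5 CPM in back K14+ cells, against 381.2 to 413.2 CPM in the K14 total, and 343.3 to 710.8 CPM in back Aspm+ cells, against 474.1 to 903.7 CPM in the Aspm total. In tail it was 233.9 to 272.4 CPM in Slc1a3+ cells, against 1089 to 1199 CPM in the Slc1a3 total. It was 641.9 to 800.9 CPM in tail Aspm+ cells, against 979.2 to 1098 CPM in the Aspm total, and 1134 to 1150 CPM in tail Dlx1+ cells, against 1923 to 2015 CPM in the Dlx1 total. The sum was thus lower in the labelled library in all 14 pairs, while Aqp3 was lower in 7 of 8 back pairs and 1 of 6 tail pairs. Of the 8 genes, Sostdc1, an inhibitor of BMP and Wnt signals, fell in back Slc1a3+ cells (log2 fold change -1.51, SE 0.269, edgeR adjusted p = 0.0142). In tail Slc1a3+ cells Sostdc1 fell too (-1.89, edgeR adjusted p = 0.00352), with Sox9, a transcription factor of follicle stem cells (-2.36, edgeR adjusted p = 0.00214), and Postn, a matrix protein (-2.46, edgeR adjusted p = 0.035). Grem1, an inhibitor of BMP signals, was at 0 counts in tail Aspm+ cells and fell there (edgeR adjusted p = 0.00942). Of all genes, 0.109% passed in back Slc1a3+ cells, 0.514% in tail Slc1a3+ cells and 0.00572% in tail Aspm+ cells. None of the 8 passed in back Aspm+, back K14+ or tail Dlx1+ cells. Not every member was lower. In back Slc1a3+ cells 6 had negative changes, while Krt75 (1.69) and Cd34 (0.57) had positive ones that did not pass.

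The upper follicle genes (Krt79, Krt17, Lrig1, Sox5 and Defb6) were likewise summed. In tail the sum was 408 to 458.2 CPM in Slc1a3+ cells, against 792.6 to 797.3 CPM in the Slc1a3 total, 649.9 to 677.7 CPM in Aspm+ cells, against 685.7 to 800.2 CPM in the Aspm total, and 199.9 to 303.1 CPM in Dlx1+ cells, against 497.6 to 966.7 CPM in the Dlx1 total. In back it was 318.6 to 424.6 CPM in Slc1a3+ cells, against 468.3 to 654.8 CPM in the Slc1a3 total, 355.9 to 527.2 CPM in Aspm+ cells, against 415.2 to 634.6 CPM in the Aspm total, and 309.1 to 379 CPM in K14+ cells, against 508.5 to 543.7 CPM in the K14 total. Lrig1, which marks stem cells of the upper follicle, fell in tail Slc1a3+ cells (-2.98, edgeR adjusted p = 0.000358), where 0.514% of all genes passed. No other upper follicle gene passed there, and none passed in the other comparisons of labelled cells with totals. In back Slc1a3+ cells 3 had negative changes, while Sox5 (0.63) and Defb6 (0.35) had positive ones that did not pass. The part of follicle cells in the Aqp3 result was not tested.

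**Figure D3:**
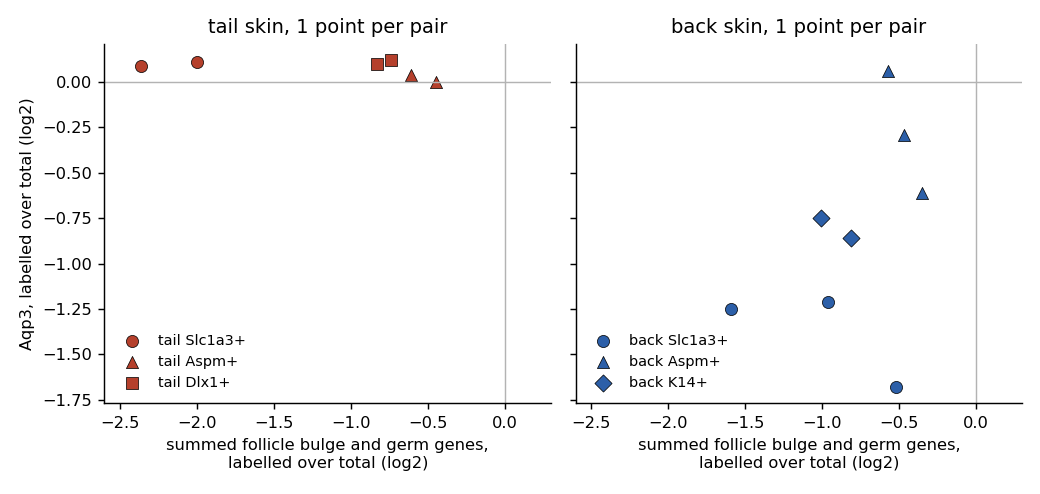
Each point is 1 pair of a labelled library and the total of the same line and number, with the log2 ratio of the summed bulge and germ genes across and that of Aqp3 upwards, tail at left and back at right. In tail the follicle sum was lower in labelled cells in every pair, down to a log2 ratio of -2.36, while Aqp3 stayed between -0.0007 and 0.12, and in back both were mostly below 0.

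Labelled cells of different lines were compared next. In back, Aspm+ cells had 94.43, 75.26 and 72.68 CPM, against 31.29 and 29.59 CPM in K14+ cells. The groups did not overlap, and the log2 fold change was 1.41 (SE 0.163), where 0.2% of genes passed. Slc1a3+ cells had 38.6 to 50.22 CPM, against the same K14+ values, and lay above both, with a log2 fold change of 0.52 (SE 0.159, 2.8% of genes passed). In tail, against Dlx1+ cells, the log2 fold change was 0.16 in Slc1a3+ cells (SE 0.168, 5.47% of genes passed). In Aspm+ cells it was -0.15 (SE 0.168, 0.0915% of genes passed), and both pairs of groups overlapped. The tail Slc1a3+ over Dlx1+ sign turned with scaling by library totals.

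The totals also differed between back lines. The Slc1a3 and Aspm totals entered the choice of the gene through the excess of tail over back, so the p-values here are not fully independent of that choice. The Slc1a3 total (100.8, 115.8 and 123.5 CPM) lay above the K14 total (52.66 and 53.62 CPM), by 1.09 on the log2 scale (SE 0.161, edgeR adjusted p = 0.00111, 7.76% of genes passed), and by 1.03 without the total that stood apart (edgeR adjusted p = 0.00292). The Aspm total (90.67, 91.87 and 110.8 CPM) lay above the same K14 libraries by 0.88 (SE 0.160, edgeR adjusted p = 0.0303, 0.0686% of genes passed). Both were lost when the other groups were left out of the fit (edgeR adjusted p = 0.143 and 0.115). The Slc1a3 call was also lost without K14 total replicate 1 (edgeR adjusted p = 0.0546). The Aspm call was also lost without Aspm total replicate 2 or 4 or either K14 total (edgeR adjusted p = 0.0513 to 0.492). The Slc1a3 and Aspm totals of back overlapped (0.21, edgeR adjusted p = 0.49, 0.0114% of genes passed; 0.15 without the total that stood apart). In tail the Slc1a3 total lay above the Aspm total without overlap (0.23, 95% interval -0.12 to 0.58, edgeR adjusted p = 0.718, 0.00572% of genes passed). The Slc1a3 total against the Dlx1 total (0.17, edgeR adjusted p = 0.646, 1.92% of genes passed) and the Aspm total against the Dlx1 total (-0.06, edgeR adjusted p = 1, 0.0343% of genes passed) overlapped.

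Aqp3 made up most of the aquaporin RNA. Of 12 aquaporin genes in the files, 10 had a count and 4 were abundant enough to test. Per kilobase of exon, Aqp3 gave 99.4% to 99.9% of the family's level in tail libraries and 90.2% to 99.3% in back libraries. Aqp9, another channel that carries glycerol, averaged 8.98 CPM in the tail totals of the Slc1a3 and Aspm lines (SD 1.77, n = 4), against 1.55 CPM in the back totals (SD 1.58, n = 6). It rose by 2.77 on the log2 scale (SE 0.567, edgeR adjusted p = 0.000334), and it also rose in Slc1a3+ cells (2.32, edgeR adjusted p = 0.0341) and Aspm+ cells (2.24, edgeR adjusted p = 0.037). Aqp1, a water channel of small vessels, averaged 0.60 CPM in the tail totals (SD 0.28, n = 4), against 4.11 CPM in the back totals (SD 4.93, n = 6), and fell by 2.72 on the log2 scale (edgeR adjusted p = 0.0321). The back totals, at 0.0 to 13.3 CPM, enclosed the tail range of 0.236 to 0.895 CPM. Between sites Aqp1 did not pass in Slc1a3+ cells (-0.18, edgeR adjusted p = 0.934) or Aspm+ cells (0.49, edgeR adjusted p = 0.862). The 5 endothelial genes summed to 1.219 to 2.08 CPM in the same tail totals, against 1.369 to 30.96 CPM in the back totals. Of these genes 1 fell, where 23.7% of all genes fell, and their part in the Aqp1 result was not tested. Aqp11, an intracellular aquaporin, did not pass (-0.80, edgeR adjusted p = 0.238). Aqp6 and Aqp8 had no count in any library. None of Aqp1, Aqp9 and Aqp11 passed in any comparison of labelled cells with totals.

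The 3 annotated genes on either side of Aqp3 were also examined. Aqp7 had 107 counts in all libraries together, too few to set its sites against each other, and the annotated non-coding neighbours Gm25637 and Gm12402 had none. Nol6, a nucleolar protein gene 16243 bases away, lay at 105 to 145 CPM in tail and 50 to 85.7 CPM in back, which did not overlap. Ube2r2, which encodes a ubiquitin-conjugating enzyme, lay at 100 to 134 CPM in tail and 52.5 to 84.5 CPM in back. Nfx1, a transcription factor gene, overlapped between the sites, at 124 to 166 CPM in tail and 103 to 145 CPM in back.

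Genes of the pathways around aquaporin-3 were followed in the totals of the Slc1a3 and Aspm lines, tail over back, where 22.5% of genes rose, 23.7% fell and the median log2 fold change of all genes was -0.03. Of 23 genes of glycerol and glycerolipid metabolism tested, 8 rose and 1 fell, with a median of 0.29. Plin2, a coat protein of lipid droplets, averaged 92.8 CPM in tail totals (SD 8.04, n = 4), against 25.5 CPM in back totals (SD 5.88, n = 6), and rose by 1.85 (edgeR adjusted p = 2.01e-10). Dgat2, which makes triglyceride, rose by 1.36 (50.6 CPM against 19.6 CPM, edgeR adjusted p = 0.000139). Of 5 peroxide-source genes tested, 4 rose and 0 fell, with a median of 1.81. Duox1, a dual oxidase that releases hydrogen peroxide, averaged 68.8 CPM in tail totals (SD 15.6), against 19.7 CPM in back totals (SD 6.52), and rose by 1.81 (edgeR adjusted p = 8.78e-07). Its maturation factor Duoxa1 rose by 1.86 (46.5 CPM against 13.5 CPM, edgeR adjusted p = 1.23e-07).

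Of 15 osmotic response genes tested, 3 rose and 4 fell, with a median of -0.26. Trpv4, a calcium channel that responds to cell swelling, rose by 2.29 (37.7 CPM in tail totals against 7.77 CPM in back totals, edgeR adjusted p = 2.45e-08). Slc6a6, the taurine transporter, rose by 1.45 (2312 CPM against 843 CPM, edgeR adjusted p = 9.65e-06). The 4 that fell were Oxsr1 (-0.74, 50.1 CPM against 83.8 CPM, edgeR adjusted p = 1.21e-05), Sgk1 (-0.70), Stk39 (-0.60) and Wnk1 (-0.53). Of 15 epithelial ion transport genes tested, 7 rose and 5 fell. Atp1b1, a beta subunit of the sodium pump, averaged 2.47 CPM in tail totals (SD 0.419), against 110 CPM in back totals (SD 56.1), and fell by 5.41 (edgeR adjusted p = 3e-09).

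Of 13 genes for hydration of the cornified layer tested, 6 rose and 2 fell, with a median of 0.86. The proteases Klk7 and Klk5, which release cells from the surface, rose by 4.24 and 2.18 (edgeR adjusted p = 1.4e-10 and 4.69e-06), and Casp14, which helps process filaggrin, fell by 1.06 (edgeR adjusted p = 1.14e-05). Of 13 genes reported as regulators of Aqp3, 3 rose and 4 fell, with a median of -0.16. Ppara, a nuclear receptor for fatty acids, averaged 5.65 CPM in tail totals (SD 2.21), against 31.3 CPM in back totals (SD 14.4), and fell by 2.45 (edgeR adjusted p = 2.38e-06). Its relative Ppard rose by 0.73 (edgeR adjusted p = 1.22e-05). Of 8 basal keratinocyte genes 4 rose and 2 fell, and of 8 suprabasal genes 3 rose and 2 fell. Krt14 rose by 1.47 (edgeR adjusted p = 6.78e-07), while Krt15 fell by 2.13 (edgeR adjusted p = 3.31e-12).

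**Figure D4:**
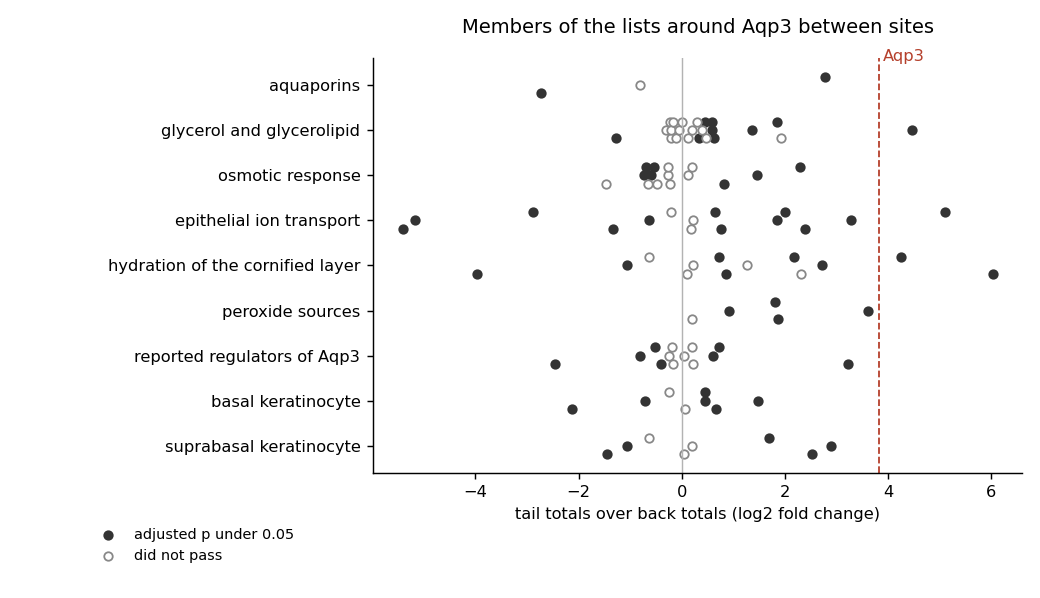
Log2 fold change of tail totals over back totals (Slc1a3 and Aspm lines) for the tested members of each list other than Aqp3, 1 point per gene, filled where the adjusted p was under 0.05. The dashed line is Aqp3 at 3.83, and most members of every list lie to its left.

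Markers of other cells were followed in the same comparison of totals, tail over back, where 22.5% of all genes rose and 23.7% fell. Of 6 sebaceous gland genes 5 rose, with sums of 121.9 to 182 CPM in tail totals of the Slc1a3 and Aspm lines, against 0.0 to 15.59 CPM in back totals. Of 8 bulge and germ genes all 8 rose, with sums of 979.2 to 1199 CPM against 413.2 to 903.7 CPM. All 5 melanocyte genes rose (15.83 to 22.03 CPM against 3.686 to 7.41 CPM). All 3 tested hard keratin genes of the tail scale rose (3108 to 4978 CPM against 1.474 to 6.411 CPM). Of 6 Langerhans cell genes 4 fell (50.72 to 91.16 CPM against 77.63 to 208.7 CPM). Of 5 fibroblast genes tested 2 rose, of 5 upper follicle genes 3 rose and 1 fell, of 4 T cell genes 1 rose and 2 fell, of 5 endothelial genes 1 fell, and of 3 Merkel cell genes 1 rose. Beside the shares over all genes, these small counts are not read as a change in those cells. None of 3 erythrocyte genes and 1 adipocyte gene passed, and Adipoq, the defining adipocyte gene, was at 0 counts in 11 of 12 groups. The part of these cells in the tail excess of Aqp3 was not tested.

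Against Dlx1+ cells in tail, Mgll, which splits monoglycerides, rose in Slc1a3+ cells (186 CPM against 72.8 CPM, log2 fold change 1.35, edgeR adjusted p = 3.39e-05) and in Aspm+ cells (156 CPM against the same Dlx1+ cells, 1.10, edgeR adjusted p = 0.00437). It was the only 1 of 23 glycerol and glycerolipid genes tested that passed in each comparison. Of all genes, 5.47% passed in the Slc1a3+ comparison and 0.0915% in the Aspm+ comparison. Members of other lists passed in both as well.

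The genes most like Aqp3 were sought among 9979 genes by Pearson's r of log2 CPM over the 28 libraries after the mean of each site was subtracted. The 10 highest were Ltbp1 (r = 0.78), Pdlim4 (0.78), P2rx7 (0.75), Ehf (0.75), Irx4 (0.72), Megf6 (0.71), Adgrl3 (0.70), Oxnad1 (0.70), Kif26a (0.69) and Trpm4 (0.68). The next gene had an r of 0.675, so the list has no clear edge. Most of the likeness lay in back, where the 16 libraries spread more. Ltbp1, which encodes a binding protein of latent TGF-beta, had an r of 0.90 over the back libraries and -0.51 over the 12 tail libraries. Pdlim4, which encodes a PDZ and LIM domain protein, had 0.81 in back and 0.31 in tail. The 5 lowest were Pif1 (-0.71), Esr1 (-0.68), Nrn1 (-0.64), Ttc9c (-0.63) and Ska2 (-0.62). The libraries share depth, line and number, and these values carry no test.

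Over all libraries with no site mean subtracted, 260 genes had an r above 0.9 and 417 had one below -0.9. Among the 10 highest, at 0.97 to 0.98, were Trpm4, Pdlim4, Spire1, Degs1, Serinc2, Bmp1, Txnrd3, Itgb5 and Capn2, and 2 of the 10 were also among the 10 most alike within the sites. Pdlim4 averaged 121 CPM in tail Slc1a3+ cells and 180 CPM in the tail Slc1a3 total, against 5.30 CPM in back Slc1a3+ cells and 15 CPM in the back Slc1a3 total. Trpm4, a cation channel opened by calcium, averaged 90.8 CPM in tail Slc1a3+ cells, against 29.7 CPM in back Slc1a3+ cells. Of the 10 genes most alike within sites, 8 had a promoter in the RefSeq table, 6 of these held GGGCGG and 1 held TATAAA. Over all promoters, of genes at any level, the shares were 32.7% and 12.4%. A gene counted if any of its promoters held the motif, while these shares are per promoter, so the counts and shares are unlike measures. Without back Slc1a3 total replicate 4, 6 of the 10 highest over all libraries stayed among the 10 highest, and 4 of those within sites.

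**Figure D5:**
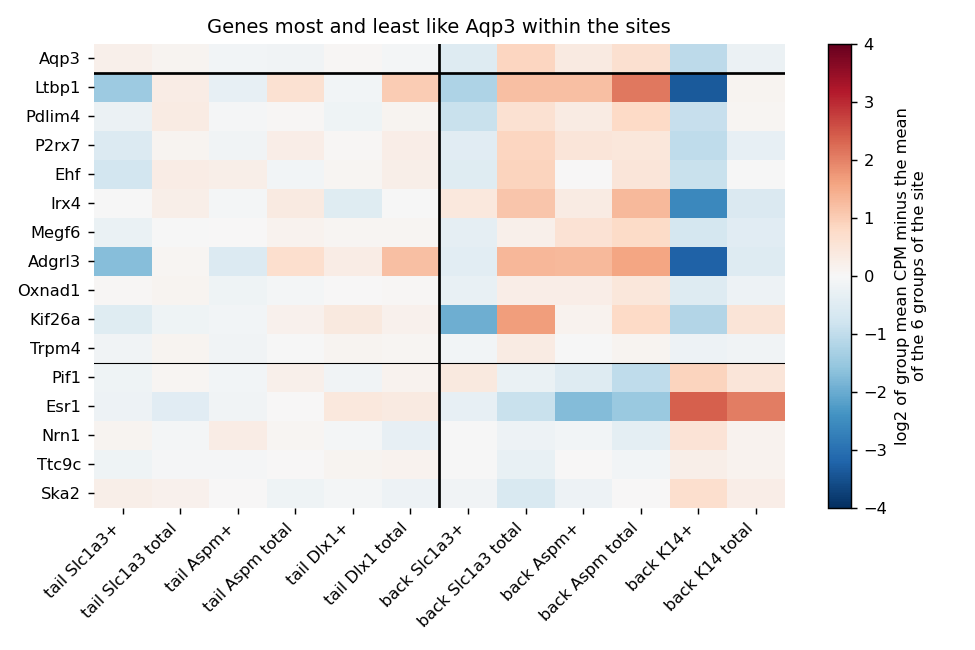
Log2 of each group's mean CPM minus the mean of the 6 groups of its site, for Aqp3, the 10 genes most like it and the 5 least like it within sites, with tail groups at left. Among the back groups, Aqp3 and 9 of the 10 genes are lowest in K14+ cells and Kif26a in Slc1a3+ cells, and each varies less among the tail groups.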

How the data were processed

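Per the labels' protocols, RNA was extracted with TRIzol, poly(A) selected and made into non-directional libraries from low input. Per the submitters' processing notes, Trim Galore 0.6.0, cutadapt, FastQC, STAR 2.7.0e, DESeq2 1.26.0 and GRCm38 were named. The counter, its annotation and strand setting are not given in the sources used here. The authors deposited whole-number counts per gene, 1 file per library, which were joined by Ensembl identifier. All 55536 identifiers matched GENCODE M21, which gave symbols and exon lengths.

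Counts were fitted in edgeR 4.0.16 (R 4.3.3) with TMM, a minimum count of 10, 12 group means over 28 libraries and the robust quasi-likelihood test. P-values were adjusted by Benjamini and Hochberg over 17493 genes (threshold 0.05). Intervals are 95%, and log2 CPM used a prior count of 2. Scripts were tested on simulated data. Aqp3, the lists and the tests were chosen with earlier results of these data known. Named genes were Aqp3, its family, its 3 neighbours on either side, the genes most and least like it, and the list members with the smallest adjusted p. The labels do not say what the replicate number shares. Deviations from group means correlated between the labelled and total library of each line and number (r = 0.18 to 0.689), which were treated as pairs; where a line has 2 libraries a group, both pairs give the same r. Between lines r was -0.129 to 0.343, and in back the same numbers of the Aspm and K14 lines correlated at 0.188 to 0.343, so there the number may also go with shared deviations. Comparisons of Aqp3 with labelled Slc1a3+ or Aspm+ cells were planned as tests and are given without one, because those libraries chose the gene. Alternatives were DESeq2 1.42.0, limma-voom (limma 3.58.1), other scalings, no filter, terms for the number, fits of the compared groups alone and leaving out each library. Some genes that the rule would name are not reported here.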

Additional observations from a re-analysis of the deposited data

Results flagged for a closer look

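The change of Aqp3 in Slc1a3+ cells over the Slc1a3 total differed between the sites by 1.47 on the log2 scale, tail minus back (SE 0.220). In tail the fitted change was 0.10, with both pairs higher in labelled cells, and in back it was -1.37, with all 3 pairs lower. This difference is given without a test, because the Slc1a3+ libraries entered the contrast that chose the gene.

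The difference between Slc1a3+ and Aspm+ cells was 0.31 in tail and -0.88 in back, so tail minus back was 1.19 (SE 0.219). All libraries of Slc1a3+ cells lay above those of Aspm+ cells in tail and below them in back. This difference was not tested, because the gene was chosen for it.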

How the results depend on the processing

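Of 337 alternative values of the Aqp3 changes, 17 had the other sign. When the other groups were left out of the fit, calls were lost for Slc1a3 total against K14 total (1.08) and Aspm total against K14 total (0.90), where fewer samples estimate the spread. The changes given without a test were then -1.37 (back Slc1a3+ against total), 1.42 (Aspm+ against K14+) and 1.46 (Slc1a3 labelled over total, tail minus back).

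Back K14+ against total gained a call with DESeq2 (-0.82), with no filter (-0.80) and with a replicate block (-0.80). It gained none with limma-voom, with other scalings or with the compared groups alone. Back Slc1a3+ against K14+, given without a test, was 0.57 with DESeq2, 0.67 with library totals and 0.52 with a block by number. The block changed no other call of a tested comparison, and it was not fitted for the direct contrasts of tail with back. With it, 62 genes were called in back Slc1a3+ against total, where the fit without it called 19, and 18 in back K14+ against total, where that fit called 1.

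Signs turned for values that never passed. With library totals these were tail Aspm+ against total (-0.03; -0.002 with no filter), tail Slc1a3+ against Dlx1+ (-0.03), their totals (-0.01) and Slc1a3 against Aspm totals, tail minus back (-0.11). Library totals also moved tail over back in Slc1a3+ cells to 5.11 and the lineage difference between sites to 0.98. The cause was not tested.

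Leaving out 1 library gave -0.04 to 0.21 for tail Slc1a3+, -0.04 to 0.08 for tail Aspm+ and -0.03 to 0.26 for tail Dlx1+ against totals. It gave 0.41 to 0.61 for back Slc1a3+ against K14+, 1.03 to 1.17 for Slc1a3 total and 0.78 to 0.93 for Aspm total against K14 total. It gave -0.19 to 0.09 for tail Aspm total against Dlx1 total and 0.19 to 0.42 for tail Slc1a3+ against Aspm+. Between sites it gave -0.09 to 0.16 for Slc1a3 against Aspm totals and 1.33 to 1.58 for the Slc1a3 labelled over total change. A lone library left in a group is assumed to vary like the others. With Spearman's rho, 6 of the 10 genes most alike within sites and 3 of those over all libraries stayed. Groups hold 2 or 3 libraries, and the lowest Aqp3 count in a library was 476.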

Other observations

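Esr1, among the 5 genes least like Aqp3 within sites, averaged 41.6 CPM in back K14+ cells and 33.1 CPM in the K14 total, against 6.30 CPM in back Slc1a3+ cells and 2.39 CPM in back Aspm+ cells. In tail it averaged 19.4 CPM in Slc1a3+ cells, 20.5 CPM in Aspm+ cells and 29.9 CPM in Dlx1+ cells. Esr1 encodes an oestrogen receptor, and CreER is a fusion of Cre with the ligand-binding part of such a receptor. Reads from Esr1 and from the transgene could not be told apart here.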
